A study of Rattus norvegicus with 15 samples.

Results

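Lungs of rats given lipopolysaccharide (LPS) and the herbal formula Sang Ju Yin (the group SJY) were compared with lungs of rats given LPS alone (the group ALI, for acute lung injury), to ask what the formula changed in injured lung. The comparison used 10 of the 15 deposited RNA-seq libraries, 5 SJY libraries (numbered 1, 3, 4, 5 and 6) and 5 ALI libraries (numbered 1 to 5), chosen by their labels. The other 5 are of normal control rats (numbered 4 to 8) and served for the estimate of spread and as a reference level. All rats were labelled wild type and the tissue was lung. ALI rats received LPS into the trachea, SJY rats received LPS into the trachea and Sang Ju Yin into the stomach, and control rats were labelled as normal controls. The labels give no strain, dose, time after LPS, composition of the formula or group treated with the vehicle alone, and no group received Sang Ju Yin without LPS. Whether a library is 1 animal or a pool is also not stated, so the p-values rest on the variation among these libraries alone, which may be technical. A gene was tested when it reached 1 FPKM (fragments scaled to transcript length and to library size) in at least 5 of the 10 libraries, which 13008 of 22250 genes did.

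Sang Ju Yin is a classical Chinese formula for early respiratory illness, made from mulberry leaf, chrysanthemum, forsythia, mint, apricot kernel, platycodon root, reed rhizome and licorice. LPS, from the wall of Gram-negative bacteria, is sensed through Toll-like receptor 4 on macrophages and epithelium. The airspace then fills with neutrophils drawn by chemokines. A second arm of the same receptor induces type I interferon, whose receptor activates a complex that contains STAT2 and IRF9, binds interferon-stimulated response elements and turns on antiviral genes.

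Defining lung transcripts were abundant in the 10 libraries. Surfactant protein C (Sftpc) ran from 2476 to 13774 FPKM and the club cell product Scgb1a1 from 5265 to 13287 FPKM, with the lowest Sftpc in ALI 1. The type I cell receptor Ager was likewise lowest in ALI 1, at 189.8 FPKM against 487 to 1054 in the other 9. The endothelial gene Cldn5 was listed at 0 in all 15 libraries, and the cilium regulator Foxj1 was not analysed here. Part of the low FPKM values, 93 to 158 genes per library of 295 to 488 compared, stood on a shared step against control 8. From these the relative number of fragments was estimated at 0.988 to 1.15 times that of control 8. Only ratios close to equality were searched, so a large difference in depth could not have been found. ALI 1 stood apart: the 13 mitochondrially encoded genes took 37.7% of its summed FPKM, against 8.31% to 14.1% in ALI 2 to 5, 10.4% to 17.1% in SJY and 5.19% to 9.62% in control. ALI 3 was high for B cell and lymph node genes, at a mean level of 5.15 log2(FPKM + 1) over the B cell and plasma cell list against 2.57 to 3.67 in the other 9 libraries. Results are therefore given with all libraries and without ALI 1. The mitochondrial share did not separate the groups (difference of SJY minus ALI -3.23 percentage points, exact two-sided permutation p = 0.897, 5 against 5). Without ALI 1 the difference was 2.28 points (exact permutation p = 0.222, 5 against 4).

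**Figure D1:**
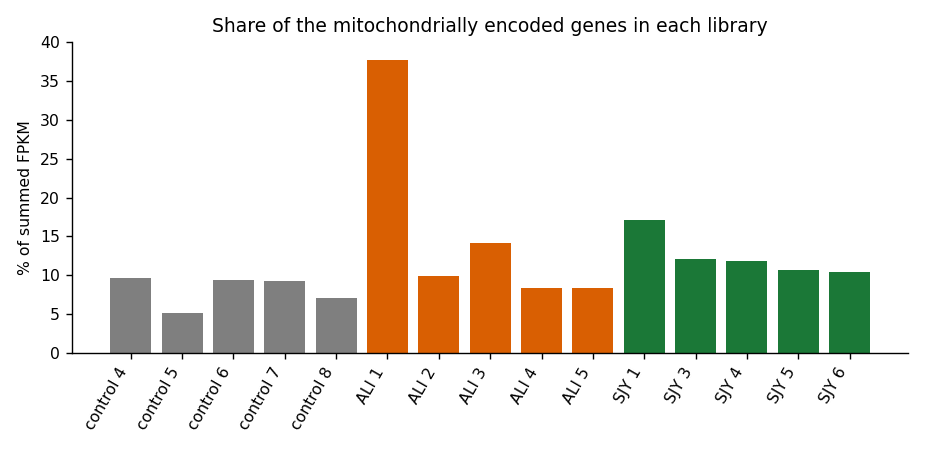
Share of the mitochondrially encoded genes in the summed FPKM (y axis, percent) of each of the 15 libraries (x axis), grey for control, orange for ALI and green for SJY. ALI 1 reaches 37.7%, and each of the other 14 libraries lies between 5.19% and 17.1%.

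With all libraries, 1 of 13008 genes was called, the granzyme gene Gzma, at an adjusted p under 0.05 by limma with Benjamini-Hochberg adjustment (0.00769% of genes). At an unadjusted p under 0.05 there were 1550 genes, 884 higher (6.8%) and 666 lower (5.12%) in SJY. Without ALI 1, 181 genes were called (1.39% of genes), 121 higher in SJY (0.93%) and 60 lower (0.461%). At an unadjusted p under 0.05 there were then 2565 genes, 1044 higher (8.03%) and 1521 lower (11.7%). These shares are the background for the unadjusted counts of the lists below. With mitochondrial genes left out and the libraries rescaled, the split without ALI 1 was 80 higher and 64 lower. The median log2 difference of all tested genes was 0.03 with all libraries and -0.07 without ALI 1. A log2 difference here is SJY minus ALI on the log2(FPKM + 1) scale, which understates the change of low genes, and it is followed by limma's SE.

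The 5 SJY libraries all lay on 1 side of the 5 ALI libraries for 428 genes (3.29%), 302 higher (2.32%) and 126 lower (0.969%). Without ALI 1 this held for 1177 genes (9.05%), 5 against 4. Of the 121 genes that rose without ALI 1, ALI 1 lay above the other ALI libraries, on the SJY side, for 99, and above all SJY libraries for 37. Of the 60 that fell, ALI 1 lay below the other ALI libraries for 54 and below all SJY libraries for 31. The difference kept its sign with all libraries in all 121 genes that rose and in 59 of the 60 that fell, the exception being Tnfsf13b (the B cell survival factor BAFF). Both fits share every library but ALI 1, and the place of ALI 1 is given against ALI 2 to 5, which also chose these genes.

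**Figure D2:**
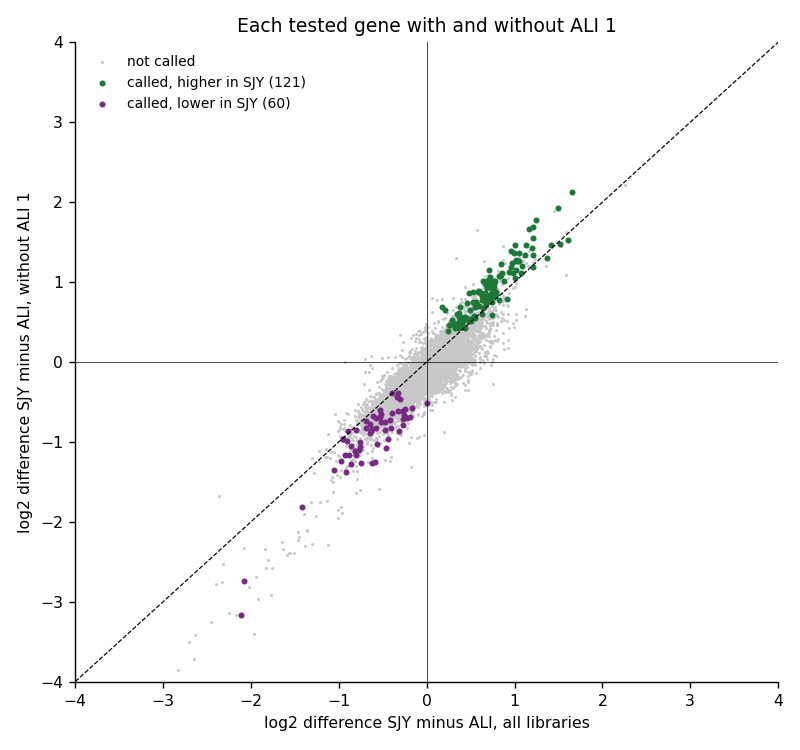
Log2 difference SJY minus ALI of each of the 13008 tested genes with all libraries (x axis) and without ALI 1 (y axis), green for the 121 genes called higher and purple for the 60 called lower without ALI 1, with the line of equality dashed. Both axes use the same SJY libraries and share 4 of the 5 ALI libraries, and most green points lie above the line and most purple points below it.

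Gzma encodes granzyme A, a serine protease in the granules of natural killer and cytotoxic T cells. It stood at 82.1, 91.01, 62.2, 47.8 and 68.9 FPKM in the SJY libraries (in the order of their numbers, here and below) and at 20.9, 35.5, 24.2, 20.96 and 18.7 FPKM in ALI 1 to 5. Every SJY library was above every ALI library, and the control libraries, at 11.6 to 23.6 FPKM, overlapped ALI. The log2 difference was 1.51 ± 0.22 (limma adjusted p = 0.0431) with all libraries and 1.47 ± 0.23 (adjusted p = 0.0119) without ALI 1. With all libraries the call was lost under median-of-ratios scaling (adjusted p = 0.0708), a pseudocount of 0.1 (0.0549), no filter (0.106), a fit of only SJY and ALI (0.0791) and limma without trend or robust settings (0.0629). It was also lost without any 1 of SJY 1, 3, 4 or 6, ALI 3, 4 or 5, or control 6 or 7 (adjusted p up to 0.211). Without ALI 1 it held with each further library left out (adjusted p 0.00653 to 0.0421). Gzmbl2, a granzyme B-like gene, followed at 9.81, 8.34, 3.67, 2.69 and 3.70 FPKM in SJY and 2.06, 2.50, 0.944, 1.78 and 0.993 in ALI, without overlap, and was not called (1.29 ± 0.32, adjusted p = 0.0562 without ALI 1). Perforin (Prf1), the pore former released with granzymes, had a mean of 24.3 ± 5.17 FPKM in SJY and 14.6 ± 4.54 in ALI and overlapped between the groups (log2 difference 0.72 ± 0.22, adjusted p = 0.24). Of 31 tested genes of cytotoxic lymphocytes (38 listed, 37 matched), Gzma was the only one called in either fit, 3 lay without overlap above ALI (9.68%, against 2.32% of all genes), 11 were higher and 1 lower by unadjusted p under 0.05 with all libraries, and the median log2 difference was 0.21 with all libraries and 0.13 without ALI 1. The granule gene Nkg7 overlapped between the groups, with a mean of 27.9 ± 6.96 FPKM in SJY and 17.5 ± 6.89 in ALI, where ALI 1 was lowest at 6.41.

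The genes whose log2(FPKM + 1) values over the 10 libraries were most like those of Gzma were Cd300le (Pearson r = 0.972), Tfpt (0.954), Ndufb11 (0.954), Ndufb2 (0.951) and Ifi35 (0.949). These 10 values mix both groups and are given as a description. Cd300le, an activating receptor of myeloid cells, stood at 169, 164, 127, 96.6 and 138 FPKM in SJY and at 64.4, 88.3, 70.6, 74.99 and 73.5 in ALI. Its groups did not overlap, SJY 5 being the lowest SJY library for it as for Gzma, and it was not called (0.87 ± 0.26, adjusted p = 0.231). Ifi35, an interferon-induced protein, had 46.9, 41.1, 40.8, 38.9 and 38.1 FPKM in SJY and 29.2, 29.999, 28.9, 27.3 and 24.5 in ALI, and it rose without ALI 1 (0.56 ± 0.10, adjusted p = 0.0155). Ndufb2 and Ndufb11 are subunits of respiratory complex I.

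Antiviral interferon-stimulated genes were higher in SJY as a group. Of 47 listed genes 43 were matched and tested. Without ALI 1, 12 of the 43 rose (27.9%, against 0.93% of all genes) and none fell, at an unadjusted p under 0.05 there were 30 higher and 1 lower, and the median log2 difference was 0.58. With all libraries none was called, 25 were higher and none lower by unadjusted p under 0.05, and the median was 0.53. In 11 of the 43 the SJY libraries lay above all 5 ALI libraries, ALI 1 included (25.6%, against 2.32% of all genes). The mean level of the list, in log2(FPKM + 1), was 5.09 to 5.18 in SJY, 4.35 to 4.70 in ALI 2 to 5, 4.81 in ALI 1 and 3.79 to 4.45 in control, with no overlap between SJY and either other group. The called members were Ifit3, Ifit1bl, Isg15, Mx2, Ifi27l2b, Oas3, Rtp4, Oasl, Ifi27, Rsad2, Oas1a and Trex1.

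Ifit3, which binds foreign RNA together with its relatives, showed how ALI 1 bears on these counts. It stood at 100.1, 66.3, 66.9, 61.997 and 75.1 FPKM in SJY, at 33.96, 16.5, 24.2 and 13.2 in ALI 2 to 5 and at 133 in ALI 1. The SJY libraries lay above ALI 2 to 5 and below ALI 1, and the control libraries had 7.05 to 18.6 FPKM. Its log2 difference was 1.77 ± 0.26 without ALI 1 (adjusted p = 0.0103) and 1.25 ± 0.45 with it (adjusted p = 0.308). Isg15, a ubiquitin-like modifier, had 48.5, 40.4, 32.5, 39.2 and 34.4 FPKM in SJY and 21.2, 14.9, 12.9 and 10.3 in ALI 2 to 5. ALI 1, at 45.6, fell inside the SJY range, and the difference was 1.37 ± 0.21 without it (adjusted p = 0.0119). Ifit1bl rose by 1.43 ± 0.24 without ALI 1 (adjusted p = 0.0132), from 17.7 ± 5.52 to 49.9 ± 18.5 FPKM, with ALI 1 at 38.2.

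Other members separated the groups with ALI 1 included. Mx2, a dynamin-like GTPase with antiviral activity, stood at 36.97, 32.7, 24.9, 37.7 and 30.2 FPKM in SJY and 19.9, 18.2, 8.74, 11.7 and 11.3 in ALI. All SJY values exceeded all ALI values, while control, at 8.28 to 27.6 FPKM, overlapped both. It rose without ALI 1 (1.34 ± 0.26, adjusted p = 0.0246) and was not called with all libraries (1.21 ± 0.27, adjusted p = 0.147). Its relative Mx1 had 24.4, 20.5, 20.6, 20.6 and 18.8 FPKM in SJY and 8.97, 12.1, 14.5, 6.42 and 9.03 in ALI, again without overlap, and missed the threshold in both fits (adjusted p = 0.0523 without ALI 1). Ifi27, a small hydrophobic interferon-induced protein, had 661, 518, 435, 518 and 433 FPKM in SJY and 389.5, 344, 259, 223 and 201 in ALI, without overlap (1.01 ± 0.23, adjusted p = 0.0408 without ALI 1). Bst2, also called tetherin because it holds budding virions at the cell surface, had 429, 347, 267, 333 and 302 FPKM in SJY and 135, 267, 152, 198 and 180.0 in ALI. Its lowest SJY library was only just above the highest ALI library, and it was not called (0.76 ± 0.19, adjusted p = 0.0562 without ALI 1). Close copies within the Ifit, Mx and Oas families can share reads, and the library's strand setting is not stated, so single members of these families are less certain than the group.

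Among the regulators above these genes, Irf7 rose and Irf4 fell without ALI 1. Irf7, the transcription factor that amplifies type I interferon production, stood at 109.6, 83.3, 65.1, 83.6 and 88.3 FPKM in SJY, 45.2, 27.01, 29.5 and 23.05 in ALI 2 to 5 and 152 in ALI 1. Its SJY values lay between those of ALI 2 to 5 and that of ALI 1, and it rose without ALI 1 (1.46 ± 0.26, adjusted p = 0.0149). Stat2 and Irf9 of the interferon-activated complex had small differences: Stat2 38.8 ± 7.51 FPKM in SJY and 35.1 ± 2.29 in ALI 2 to 5, and Irf9 51.7 ± 5.16 and 43.2 ± 2.81. Neither was called (adjusted p = 0.644 and 0.193 without ALI 1). Irf4, a factor of lymphocytes and some dendritic cells, fell without ALI 1 (-1.36 ± 0.32, adjusted p = 0.0474), with 1.25, 1.49, 2.74, 1.10 and 2.37 FPKM in SJY and 1.41, 6.87, 11.1, 2.24 and 6.65 in ALI, where ALI 1 and ALI 4 overlapped SJY. Of 20 tested receptors, STATs and IRFs (21 listed), Irf7 (5%, against 0.93% of all genes) and Irf4 (5%, against 0.461%) were the only ones called. The list's median was 0.08 with all libraries and 0.01 without ALI 1. With a further library left out, Irf7 was lost in 1 of 14 settings (ALI 5) and Irf4 in 11 of 14. The fall of Irf4 was also lost under median-of-ratios scaling, with the replicate block and in a fit of only SJY and ALI.

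Targets of interferon-gamma gave no call in either fit, though they leaned higher in SJY. Of 13 tested GTPases and CXCR3 chemokines (19 listed, 15 matched) 3 were higher and none lower by unadjusted p under 0.05 with all libraries. Without ALI 1, 5 were higher (38.5%, against 8.03% of all genes) and none lower. The median was 0.24 with all libraries and 0.32 without ALI 1, and 2 lay above all ALI libraries (15.4%, against 2.32%). Without ALI 1, 3 members were called higher in a fit of only SJY and ALI, 1 with array weights and 0 with the replicate block or median-of-ratios scaling. Cxcl10, a chemokine that attracts activated T cells through CXCR3, had 34.5, 29.1, 32.1, 35.9 and 24.01 FPKM in SJY and 15.9, 13.9, 16.02, 8.25 and 14.5 in ALI, all SJY libraries being above all ALI libraries (1.15 ± 0.32, adjusted p = 0.21). Cxcl9 overlapped, with 246, 79.9, 167, 195 and 138 FPKM in SJY and 242, 115, 77.6, 84.7 and 50.6 in ALI. Among 17 tested genes of MHC class I and the immunoproteasome none was called in either fit (4 higher and none lower by unadjusted p under 0.05 with all libraries), and B2m, the light chain of class I, lay without overlap at a mean of 3117 ± 629.7 FPKM in SJY and 2377 ± 116 in ALI (adjusted p = 0.351). The 12 tested nucleic acid sensors had a median of -0.09 with all libraries and -0.26 without ALI 1, with none called and, at an unadjusted p under 0.05, 1 higher and none lower with all libraries and 1 higher and 3 lower without ALI 1.

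Promoter sequences show what the called antiviral genes share in sequence. RefSeq windows (build GRCr8) of 300 bases, 250 before to 50 after a start site, were searched on both strands for a pair of GAAA with any 2 bases between them, the core of an interferon-stimulated response element (a pair of TTTC where it lies on the opposite strand). The motif was present in 6 of the 8 called antiviral genes with a window (75.0%), in 21 of the 33 tested ones with a window (63.64%) and in 322 of 9810 tested genes (3.28%). It was present in 3.92% of all 33469 windows, in 11 of 87 genes that rose without ALI 1 (12.64%), in 2 of 37 that fell (5.41%) and in 3 of 28 neutrophil genes (10.71%). The 87 genes include the 8 called antiviral genes with a window, of which 6 hold the motif. These are matches of letters and say nothing of binding. Stretches of 50 bases around 1 match each are shown for the 6 called antiviral genes and for Irf7, 5′ to 3′ in the direction of the gene, with the match in capitals. They lie at chr1:241527262-241527311 (Ifit3, plus strand), chr1:241543646-241543695 (Ifit1bl, minus), chr6:48788238-48788287 (Rsad2, minus), chr6:128355208-128355257 (Ifi27, plus), chr12:41330405-41330454 (Oas1a, plus), chr12:41439617-41439666 (Oas3, plus) and chr1:205800063-205800112 (Irf7, minus), all upstream of the start site.
Ifit3: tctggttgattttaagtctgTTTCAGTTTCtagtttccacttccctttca
Ifit1bl: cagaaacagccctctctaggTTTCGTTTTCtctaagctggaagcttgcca
Rsad2: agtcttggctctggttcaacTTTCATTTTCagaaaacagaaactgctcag
Ifi27: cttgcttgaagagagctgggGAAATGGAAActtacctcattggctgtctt
Oas1a: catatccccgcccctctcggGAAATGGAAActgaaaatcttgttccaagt
Oas3: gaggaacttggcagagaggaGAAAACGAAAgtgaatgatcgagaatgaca
Irf7: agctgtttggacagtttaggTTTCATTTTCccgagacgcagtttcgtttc
The match ended 34 bases before the start site in Ifit3, 31 in Oas1a, 59 in Irf7, 74 in Ifi27, 85 in Oas3, 110 in Ifit1bl and 137 in Rsad2. In Ifit3, Ifit1bl, Rsad2 and Irf7 it lay on the strand opposite to the gene. Oas1a held a second match overlapping the first, and Ifi27 a second one farther upstream.

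**Figure D3:**
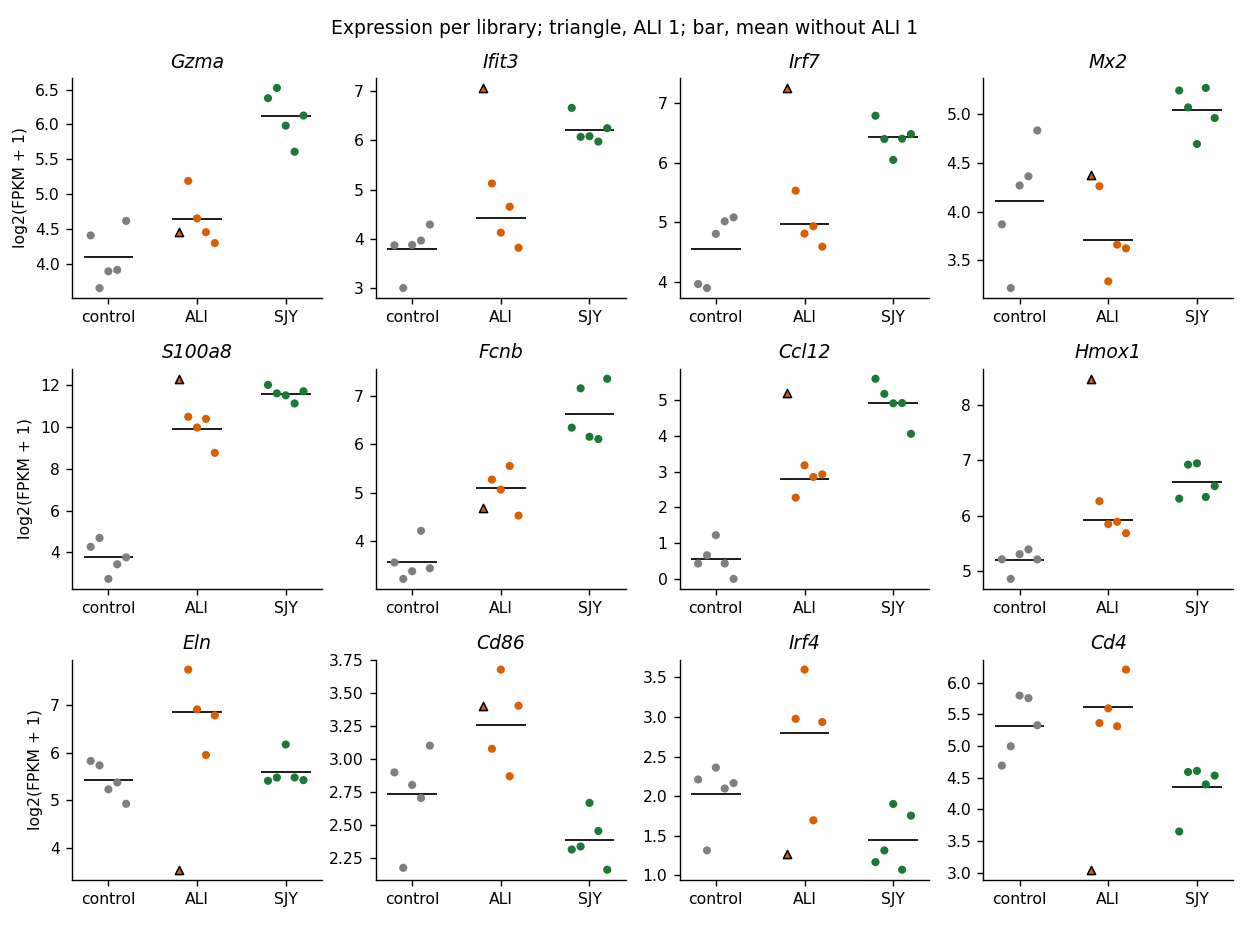
Log2(FPKM + 1) per library (y axis) of 12 genes in control (grey), ALI (orange) and SJY (green), 5 points each, with ALI 1 as an outlined triangle and a bar at the mean without ALI 1. Gzma, Mx2 and Fcnb lie above every ALI library in SJY, whereas for Ifit3, Irf7, S100a8 and Hmox1 the triangle lies above every SJY library.

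Neutrophil transcripts were also higher in SJY than in ALI 2 to 5. Of 49 listed genes 46 were matched and 40 tested. Without ALI 1, 19 of the 40 rose (47.5%, against 0.93% of all genes), none fell, and the median log2 difference was 0.94. With all libraries none was called, 22 were higher and 1 lower by unadjusted p under 0.05, the median was 0.72, and 7 lay above all ALI libraries (17.5%, against 2.32%). The mean level of the list was 5.56 to 5.99 log2(FPKM + 1) in SJY, 4.52 to 5.21 in ALI 2 to 5, 5.87 in ALI 1 and 3.03 to 3.21 in control. ALI 1 lay inside the SJY range. In whole lung, more cells of a type and more RNA per cell cannot be told apart. Blood genes moved with the neutrophil list in direction. All 9 tested members had positive differences in both fits, with a median of 0.46 with all libraries and 0.35 without ALI 1. The groups overlapped: the summed FPKM of the 14 matched blood genes was 3609 to 10433 in SJY and 2174 to 7366 in ALI. None of the 9 tested was called, and the part of blood genes in the neutrophil result was not tested.

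S100a8 and S100a9, the subunits of calprotectin, are among the most abundant neutrophil transcripts. S100a8 stood at 4094, 3098, 2901, 2216 and 3322 FPKM in SJY, at 1425, 1001, 1330.4 and 432 in ALI 2 to 5 and at 5022 in ALI 1. S100a9 stood at 7143, 5690.1, 5449, 4207 and 6637 FPKM in SJY, 2697, 2039, 2713 and 720.1 in ALI 2 to 5 and 10067 in ALI 1. For both, SJY lay above ALI 2 to 5 and below ALI 1, and control was at or below 46.7 FPKM. Without ALI 1 they rose by 1.69 ± 0.38 (adjusted p = 0.0452) and 1.66 ± 0.33 (adjusted p = 0.027), and with it the differences were 1.21 ± 0.49 and 1.17 ± 0.47 (adjusted p = 0.356 and 0.354).

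Receptors and granule genes of the list behaved in both ways. Csf3r, the receptor for granulocyte colony-stimulating factor, had 169, 166, 174, 159 and 195 FPKM in SJY and 113, 93.2, 65.1, 122 and 41.2 in ALI. Its groups did not overlap with ALI 1 included (1.20 ± 0.23, adjusted p = 0.021 without ALI 1). Fcnb, the neutrophil lectin ficolin B, had 80.3, 142, 70.3, 68.04 and 163 FPKM in SJY and 24.7, 37.6, 32.4, 45.9 and 22.04 in ALI, without overlap (1.61 ± 0.27, adjusted p = 0.0747 with all libraries, and 1.52 ± 0.28, adjusted p = 0.0184 without ALI 1). The resistin-like gene Retnlg had 18.5, 14.4, 14.5, 15.1 and 18.5 FPKM in SJY and 6.42, 3.41, 7.21, 5.95 and 4.92 in ALI, without overlap, and it too rose only without ALI 1 (1.46 ± 0.27, adjusted p = 0.02, against 0.102 with all libraries). Clec4d, a receptor for mycobacterial glycolipid, Lrg1, a secreted glycoprotein, and Ncf4, a subunit of the phagocyte oxidase, were the other called members without overlap, at 1.18, 1.15 and 0.54 without ALI 1.

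The remaining called members rose without ALI 1 and overlapped once it was included. Among them were Prok2, a neutrophil chemoattractant (1.55 ± 0.33, adjusted p = 0.034), the collagenase Mmp8 (1.38 ± 0.28, 0.0293) and the chemokine receptor Cxcr2 (1.27 ± 0.27, 0.0338). Cd177, a surface marker of neutrophils, went the other way, with 2.61, 7.03, 11.1, 6.65 and 10.6 FPKM in SJY and 15.1, 9.54, 39.8, 21.7 and 9.78 in ALI. Its groups overlapped and it was not called (-1.15 ± 0.37, adjusted p = 0.26). The primary granule protease Elane was low in every library, at 2.63, 1.51, 1.97, 1.22 and 3.30 FPKM in SJY and 2.69, 1.03, 1.57, 2.95 and 0.513 in ALI. Of called genes in no list, 4 chosen after their values were seen were Nfe2 (1.23 ± 0.17, adjusted p = 0.007), Spi1, which encodes the myeloid factor PU.1 (0.66 ± 0.10, 0.0119), the adaptor Tyrobp (0.78 ± 0.13, 0.0132) and the channel Aqp9 (1.23 ± 0.20, 0.0122), all without ALI 1. In each of these 4, ALI 1 was higher than ALI 2 to 5.

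The counts for both groups of genes depended on single libraries. Leaving out 1 further library besides ALI 1 gave 3 called antiviral genes without ALI 5, 6 without SJY 1, SJY 3 or SJY 6, and 9 to 18 otherwise. For neutrophil genes it gave 5 without SJY 6 or ALI 5, 6 without SJY 1, 10 without SJY 3 or SJY 4, 12 without ALI 3 and 16 to 20 otherwise. Without ALI 1 alone, the neutrophil count was 9 in a fit of only SJY and ALI. The replicate block gave 3 antiviral and 2 neutrophil genes, and array weights gave 23 and 20, or 22 and 19 with all libraries. None of these settings gave an antiviral or neutrophil gene that fell. Of 67 named genes called without ALI 1, 10 stayed called with each further library left out, and 56 were lost without ALI 5, the setting that lost most. The 10 were Ccl12, Fads2, Fcrl2, Gzma, Ifit3, Isg15, Lrg1, Marco, Nfe2 and Spi1.

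**Figure D4:**
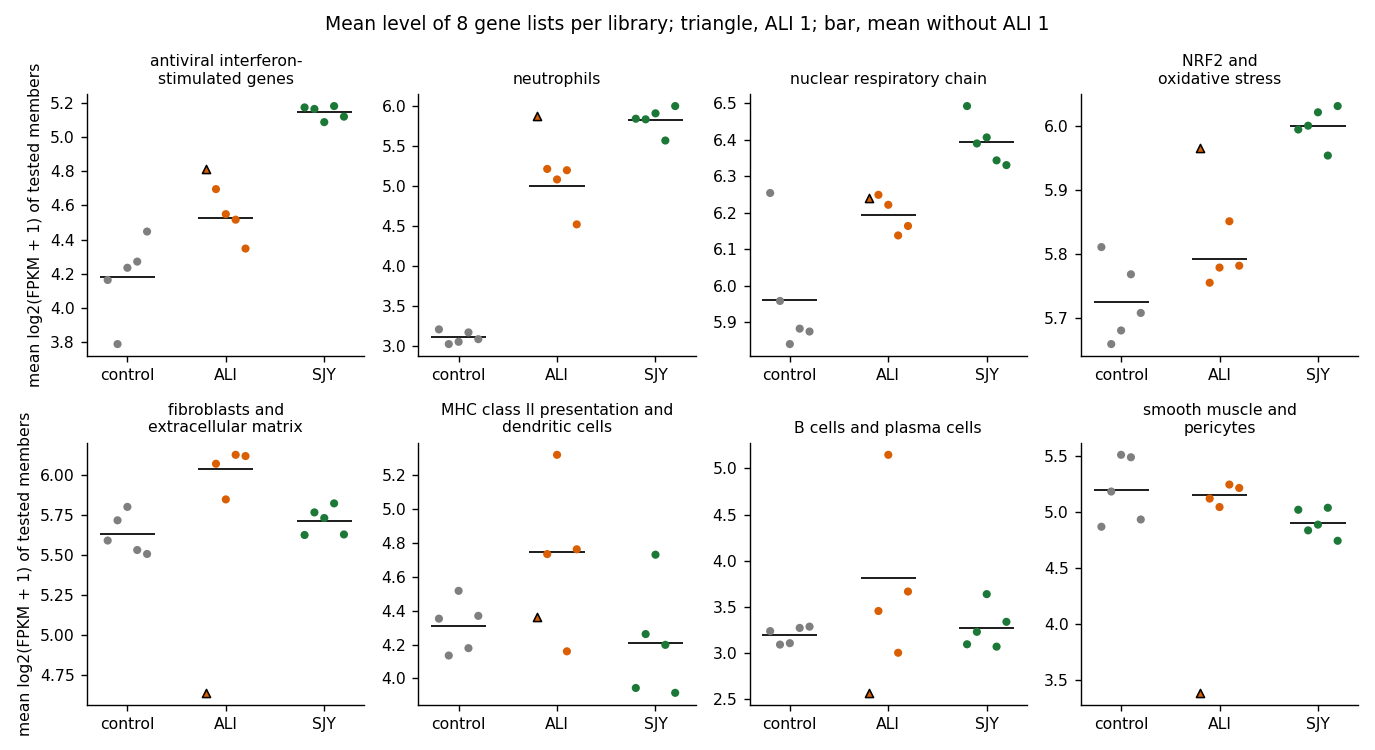
Mean log2(FPKM + 1) over the tested members of 8 gene lists (y axis) in each library, grey for control, orange for ALI and green for SJY, with ALI 1 as an outlined triangle and a bar at the mean without ALI 1. SJY lies above every ALI library for antiviral genes (5.09 to 5.18 against 4.35 to 4.81) and for the nuclear respiratory chain, and for neutrophils ALI 1, at 5.87, lies within SJY.

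Chemokines and cytokines gave calls in small numbers. Of 31 tested chemokine genes (35 listed), 3 rose without ALI 1 (9.68%, against 0.93% of all genes) and none fell. With a further library left out, the rises became 1 without SJY 1, 3 or 5, ALI 5 or control 6. They became 2 without SJY 4 or 6 or ALI 2, 3 or 4, and 0 with the replicate block. Ccl12, a ligand of the monocyte receptor Ccr2, had the largest rise of all genes called without ALI 1: it stood at 47.5, 35.2, 29.1, 29.3 and 15.7 FPKM in SJY, 3.83, 8.05, 6.22 and 6.60 in ALI 2 to 5 and 35.8 in ALI 1. SJY lay above ALI 2 to 5, ALI 1 lay within SJY, and the difference was 2.13 ± 0.29 without ALI 1 (adjusted p = 0.007) and 1.65 ± 0.44 with it (adjusted p = 0.191). Ccl24, an eosinophil attractant, and the macrophage chemokine Ccl4 rose by 1.12 ± 0.26 and 1.00 ± 0.22 without ALI 1. The neutrophil attractants Cxcl1 and Cxcl2 overlapped between the groups: Cxcl1 was at 68.7, 158, 140.0, 145 and 197 FPKM in SJY and 382, 134, 209, 151 and 86.2 in ALI, and Cxcl2 at 7.18, 29.5, 34.5, 25.8 and 30.2 and 95.7, 28.9, 20.5, 14.05 and 10.1. ALI 1 was the highest library for both and SJY 1 the lowest.

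Of 23 tested cytokine genes (34 listed), 1 rose (4.35%, against 0.93% of all genes) and 1 fell (4.35%, against 0.461%) without ALI 1. Neither was called when SJY 3, 4, 5 or 6, ALI 3, 4 or 5, or control 6, 7 or 8 was also left out. Il1rn, the antagonist of the interleukin-1 receptor, rose without ALI 1 (0.99 ± 0.23, adjusted p = 0.0493), from 57.5, 36.4, 47.2 and 27.4 FPKM in ALI 2 to 5 to 84.5, 71.2, 98.03, 68.5 and 90.4 in SJY, with ALI 1 at 128. Tnfsf13b fell without ALI 1 (-0.51 ± 0.12, adjusted p = 0.0433). Its ALI 1 value was 0.896 FPKM against 10.6, 9.26, 11.2 and 10.001 in ALI 2 to 5 and 8.38, 7.18, 6.30, 6.32 and 6.53 in SJY. Il1b itself was not called, at 130.0, 149, 134, 112 and 93.3 FPKM in SJY and 136, 78.7, 88.9, 77.1 and 84.8 in ALI (0.57 ± 0.20, adjusted p = 0.147 without ALI 1). Il6 was at 3.09, 4.97, 2.62, 3.74 and 5.96 FPKM in SJY and 35.6, 2.56, 5.14, 0.820 and 0.633 in ALI, where ALI 1 exceeded every SJY library.

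Innate effectors with a call were Nlrp3, the sensor of the inflammasome, and the complement genes Cfp (properdin) and C5ar1 (the C5a receptor). Nlrp3 had 12.1, 13.3, 12.6, 12.8 and 14.2 FPKM in SJY and 9.96, 9.60, 8.83, 10.2 and 8.83 in ALI, a narrow range in each group without overlap (0.44 ± 0.10, adjusted p = 0.0416 without ALI 1). It was the only 1 called of 25 tested inflammasome genes (4%, against 0.93% of all genes), whose median was 0.19 with all libraries and 0.05 without ALI 1. Cfp had 115, 149.9, 113, 106 and 145 FPKM in SJY and 90.2, 88.4, 63.04, 68.7 and 62.6 in ALI, without overlap (0.82 ± 0.14, adjusted p = 0.0122 without ALI 1), and C5ar1 rose by 0.69 ± 0.13 (adjusted p = 0.0235 without ALI 1). Of 33 tested complement and coagulation genes, 2 rose (6.06%, against 0.93% of all genes) and 2 fell (6.06%, against 0.461%) without ALI 1, the falls being C1qb and C1qc (below). The rises and falls became 0 when ALI 5 was also left out, and the falls also without SJY 1, 3, 5 or 6 or ALI 3. In the eicosanoid list (25 tested) Pla2g7, which inactivates platelet-activating factor, and Alox5ap, needed for leukotriene synthesis, rose by 1.05 ± 0.24 and 0.89 ± 0.16, and the prostaglandin E receptor Ptger4 fell (-0.63 ± 0.15), all without ALI 1. The rises were 8% of the list, against 0.93% of all genes, and the fall 4%, against 0.461%. No member was called when SJY 1, SJY 6 or ALI 5 was also left out, or in a fit of only SJY and ALI. Of 26 tested alveolar macrophage genes, the scavenger receptors Marco (1.26 ± 0.20) and Olr1 (0.75 ± 0.15) rose without ALI 1 (7.69%, against 0.93% of all genes). The median was 0.07 with all libraries and -0.04 without ALI 1. Olr1 was at 20.2, 21.3, 17.2, 19.1 and 20.2 FPKM in SJY and 11.6, 10.9, 9.60, 12.2 and 12.2 in ALI, without overlap. Of 19 tested IL-17 and mucosal defence genes, 4 rose without ALI 1 (21.1%, against 0.93% of all genes): S100a8, S100a9, the neutrophil gelatinase Mmp9 and Il17ra, the IL-17 receptor (0.45 ± 0.10, adjusted p = 0.0362). The count became 0 without SJY 3 or 6 and 1 without SJY 1, SJY 4, ALI 3 or ALI 5 or in a fit of only SJY and ALI. Pigr, which carries IgA across the airway epithelium, lay lower in every SJY library (90.4, 139.8, 160.2, 149 and 154 FPKM) than in every ALI library (172, 165, 295, 415 and 256) and was not called (-0.98 ± 0.26, adjusted p = 0.0754).

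Oxidative defence genes held a few calls without ALI 1. Of 30 tested genes of NRF2, the transcription factor of the antioxidant response, and of oxidative stress (35 listed, 33 matched), 3 rose without ALI 1 (10%, against 0.93% of all genes) and none fell, 4 lay above all ALI libraries (13.3%, against 2.32%), and the median was 0.21 with all libraries and 0.26 without ALI 1. The list's mean level overlapped ALI 1 (5.97) and lay at 5.95 to 6.03 in SJY and 5.76 to 5.85 in ALI 2 to 5. Its 3 rises became 0 without SJY 1, 3, 4 or 6 or ALI 3 or 5, 1 without control 6 or 7 and in a fit of only SJY and ALI, and 11 without control 4. Gpx1, which reduces peroxides with glutathione, had 502, 533, 551, 489.5 and 517 FPKM in SJY and 365, 428, 358, 362 and 401 in ALI, without overlap (0.42 ± 0.10, adjusted p = 0.0433 without ALI 1). Taldo1, an enzyme of the pentose phosphate pathway, had 333, 305, 324, 275 and 310.3 and 241, 255, 193, 224 and 196 FPKM, also without overlap (0.52 ± 0.11, adjusted p = 0.0293 without ALI 1). Hmox1, the heme-degrading enzyme, stood at 78.2, 120.0, 122, 79.8 and 91.5 FPKM in SJY, 75.6, 56.6, 58.3 and 50.4 in ALI 2 to 5 and 353 in ALI 1. It rose only without ALI 1 (0.69 ± 0.16, adjusted p = 0.0459, against 0.18 ± 0.39 and 0.903 with it).

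Nuclear genes of the respiratory chain separated the groups by small amounts. Of 34 tested members (38 listed, 37 matched) none was called in either fit, 11 were higher and 1 lower by unadjusted p under 0.05 with all libraries, and 6 lay above all ALI libraries (17.6%, against 2.32%). The mean level was 6.33 to 6.49 log2(FPKM + 1) in SJY, 6.14 to 6.25 in ALI and 5.84 to 6.25 in control, where control 4 was the highest. SJY did not overlap ALI, and the list's median was 0.21 with all libraries and 0.19 without ALI 1. Cox6c, a subunit of cytochrome c oxidase, had 238, 205, 190.1, 173 and 188 FPKM in SJY and 153, 155, 149, 130.2 and 121 in ALI (0.48 ± 0.14, adjusted p = 0.213). The 13 genes of the mitochondrial genome had no call, with none past an unadjusted p of 0.05 in either fit, and medians of -0.03 with all libraries and 0.35 without ALI 1. In the hypoxia and glycolysis list (27 tested) 3 rose without ALI 1 (11.1%, against 0.93% of all genes). They were the lactate exporter Slc16a3 (0.87 ± 0.17), Pgk1 (0.47 ± 0.10) and Aldoa (0.42 ± 0.10), all with ALI 1 above ALI 2 to 5. No member was called when SJY 3, SJY 6 or ALI 5 was also left out, or in a fit of only SJY and ALI. Among 28 tested heat shock and chaperone genes only the stress-induced factor Ddit3 was called, and only without ALI 1 (3.57%, against 0.93% of all genes). Ddit3 had 28.4, 23.5, 24.5, 23.8 and 24.1 FPKM in ALI and 52.1, 42.04, 37.1, 34.3 and 38.3 in SJY, without overlap (0.73 ± 0.13, adjusted p = 0.0153 without ALI 1). Its call was lost when ALI 5 was also left out. The list's median was -0.002 with all libraries and -0.07 without ALI 1, where 12 of 28 members were higher.

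Lower genes included markers of antigen presentation and lymphocytes. Of 23 tested genes that mark dendritic cells or MHC class II presentation (26 listed), 1 fell without ALI 1 (4.35%, against 0.461% of all genes) and none rose. At an unadjusted p under 0.05 in that fit, 11 were lower (47.8%, against 11.7% of all genes) and none higher. The median was -0.59 (-0.44 with all libraries). The member that fell was Cd86, a costimulatory ligand for T cells. It stood at 3.98, 4.06, 5.36, 4.49 and 3.48 FPKM in SJY and 9.58, 7.45, 11.8, 6.31 and 9.58 in ALI, each SJY value being below each ALI value, ALI 1 included (-0.87 ± 0.19, adjusted p = 0.0408 without ALI 1, and -0.90 ± 0.19, 0.145 with it). Fscn1, the actin-bundling protein of mature dendritic cells, was likewise lower without overlap and not called (-0.91 ± 0.27, adjusted p = 0.237). The mean level of the list overlapped between the groups, and ALI 3 was its highest library.

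Of 25 tested T cell genes, 1 fell (Cd4, 4%, against 0.461% of all genes) and 1 rose (4%, against 0.93%) without ALI 1. At an unadjusted p under 0.05 in that fit, 5 were lower (20%, against 11.7% of all genes) and 1 higher (4%, against 8.03%). The median was -0.34 (-0.12 with all libraries). Cd4, which rat macrophages also carry, had 11.6, 23.1, 23.4, 20.05 and 22.2 FPKM in SJY, 40.2, 47.4, 38.8 and 72.9 in ALI 2 to 5 and 7.27 in ALI 1 (-1.26 ± 0.26, adjusted p = 0.0276). SJY lay below ALI 2 to 5, and ALI 1 was the lowest of the 10. The 27 tested genes of B cells and plasma cells had no call. Without ALI 1, 11 were lower (40.7%, against 11.7% of all genes) and none higher at an unadjusted p under 0.05. The median was -0.52 without ALI 1 and -0.33 with all libraries. The joining chain of secreted antibody, Jchain, ranged from 114 to 1046 FPKM in SJY and from 50.2 to 1361 in ALI. The list's level overlapped between the groups, with ALI 3 highest and ALI 1 lowest. The 7 tested genes of thymus and lymph node had no call. The summed FPKM of the 15 matched ones was 158 to 646 in SJY and 227 to 1577 in ALI, highest in ALI 3. Their part in the lymphocyte values was not tested.

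Among 30 tested genes of monocytes and recruited macrophages, 3 fell (10%, against 0.461% of all genes) and 1 rose (3.33%, against 0.93%) without ALI 1. The falls became 1 under median-of-ratios scaling or in a fit of only SJY and ALI, 0 without SJY 1, 3, 5 or 6 or ALI 2, 3 or 5, and 5 without ALI 4 or control 4. C1qb, a subunit of complement C1q made by resident macrophages, had 80.3, 70.9, 111, 75.7 and 72.9 FPKM in SJY, 199, 176, 107 and 236 in ALI 2 to 5 and 19.2 in ALI 1. SJY 4 overlapped ALI 4, ALI 1 lay below all other libraries of both groups, and the difference was -1.08 ± 0.22 without ALI 1 (adjusted p = 0.0293) and -0.46 ± 0.49 with it (0.763). C1qc and the lipid carrier Apoe fell by -0.96 ± 0.21 and -1.26 ± 0.29 without ALI 1, and Apoe was also at 374 to 659.9 FPKM in control. The chemokine receptor Ccr1 rose (1.06 ± 0.23, adjusted p = 0.0356).

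The mean level of matrix genes was lower in each SJY library than in each of ALI 2 to 5. Of 34 tested fibroblast and extracellular matrix genes (42 listed, 40 matched), 4 fell without ALI 1 (11.8%, against 0.461% of all genes) and none rose. At an unadjusted p under 0.05 in that fit, 18 were lower (52.9%, against 11.7% of all genes) and none higher, and the median was -0.37. With all libraries none was called, 3 were lower and none higher at an unadjusted p under 0.05, and the median was -0.07. Col1a1, a chain of type I collagen, had 59.2, 58.4, 65.5, 55.002 and 42.1 FPKM in SJY, 107, 101, 97.5 and 103 in ALI 2 to 5, 13.9 in ALI 1 and 10.03 to 20.9 in control. SJY lay between control and ALI 2 to 5 without overlap with either, and ALI 1 lay within the control range (-0.87 ± 0.17, adjusted p = 0.0264 without ALI 1, and -0.31 ± 0.43, 0.828 with it). Lox, which cross-links collagen and elastin, had 25.3, 22.5, 34.2, 34.4 and 31.9 FPKM in SJY and 32.4, 56.4, 46.5, 50.2 and 50.7 in ALI. ALI 1 fell within SJY and the others above it (-0.78 ± 0.15, adjusted p = 0.021 without ALI 1). Elastin (Eln) had 41.5, 43.6, 70.97, 43.6 and 41.9 FPKM in SJY and 212, 119, 60.8 and 109 in ALI 2 to 5, with ALI 1 at 10.7 and SJY 4 above ALI 4 (-1.25 ± 0.28, adjusted p = 0.0418), and Fbn1, a microfibril protein, fell by -0.57 ± 0.13. Mmp14, a membrane-bound collagenase, was lower in each SJY than in each ALI library and was not called (-0.64 ± 0.24, adjusted p = 0.339). The mean level of the list was 5.63 to 5.82 in SJY, 5.85 to 6.13 in ALI 2 to 5, 4.64 in ALI 1 and 5.51 to 5.80 in control. When 1 further library was left out besides ALI 1, 0 matrix genes were called without SJY 1 or ALI 5, 1 without SJY 3 or SJY 6, 2 without SJY 5 or control 7, 8 without ALI 3, 10 without control 4 and 3 otherwise. Without ALI 1 alone, the count was 1 under median-of-ratios scaling, 2 in a fit of only SJY and ALI, 0 with the replicate block and 12 with array weights.

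Beyond the lists, the largest falls without ALI 1 were those of Fcrl2 and the unnamed gene AABR07065778.3. Fcrl2, an Fc receptor-like gene, stood at 2.46, 3.25, 8.34, 2.94 and 1.65 FPKM in SJY, 47.2, 31.4, 12.7 and 99.3 in ALI 2 to 5, 1.85 to 6.55 in control and 0 in ALI 1. SJY lay below ALI 2 to 5 and overlapped control (-3.16 ± 0.48, adjusted p = 0.0119). AABR07065778.3 fell by -2.74 ± 0.60 (adjusted p = 0.0425). Fads2, a desaturase that makes polyunsaturated fatty acids, had 5.89, 6.62, 10.7, 8.51 and 9.06 FPKM in SJY, 15.6, 17.8, 21.3 and 19.96 in ALI 2 to 5, 5.80 in ALI 1 and 20.2 to 24.5 in control. SJY was below ALI 2 to 5 and below control (-1.12 ± 0.15, adjusted p = 0.007). Lbh, a developmental transcription cofactor, had 15.1, 15.6, 21.1, 20.005 and 13.1 FPKM in SJY and 30.9, 41.4, 50.5 and 63.97 in ALI 2 to 5 (-1.38 ± 0.25, adjusted p = 0.0159). Dpysl3 (-1.24 ± 0.26), the Wnt modulator Sfrp2 (-1.17 ± 0.26), Tp53inp1, a target of p53 (-1.10 ± 0.21), and Foxo1, a transcription factor restrained by insulin signalling (-1.05 ± 0.24), were also among those that fell. For Fads2, Lbh, Tp53inp1 and Foxo1 the control mean was near or above that of ALI 2 to 5, so SJY had the lowest mean of the 3 when ALI 1 was left out.

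With all libraries, the largest non-overlapping rise was that of Ifitm6, an interferon-induced transmembrane gene, with 189.9, 206, 179, 265 and 288 FPKM in SJY and 41.6, 98.6, 13.7, 139 and 24.7 in ALI. SJY values were close to each other and ALI values were spread widely, and it was not called (2.25 ± 0.48, adjusted p = 0.145). Nlrp12, an inhibitory sensor of myeloid cells, had 12.5, 8.23, 6.04, 8.34 and 10.8 FPKM in SJY and 2.18, 3.86, 2.31, 5.01 and 1.73 in ALI, and rose without ALI 1 (1.30 ± 0.23, adjusted p = 0.0153). The rise of the histone gene H3f3c was enlarged by SJY 5, at 101 FPKM against 11.9 to 14.4 in the other SJY libraries and 8.89, 8.82, 8.60, 7.10 and 6.65 in ALI (1.21 ± 0.44, adjusted p = 0.309). The other SJY libraries also lay above every ALI library.

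The largest non-overlapping falls with all libraries included receptors and signalling genes. Il6st, the shared receptor subunit gp130 of the interleukin-6 family, had 16.6, 29.2, 31.5, 41.02 and 44.3 FPKM in SJY, 71.03, 64.9, 54.7, 117 and 72.2 in ALI and 32.99, 62.1, 90.7, 64.8 and 85.8 in control. Every SJY library was below every ALI library, control 4 was close to SJY, and Il6st was not called (-1.22 ± 0.29, adjusted p = 0.16). Tgfbr2, a receptor for transforming growth factor beta, had 13.5, 17.96, 21.6, 22.9 and 24.2 FPKM in SJY and 32.3, 30.5, 32.1, 73.4 and 65.9 in ALI, and control 4 was the only control library near SJY, at 26.7 against 75.95 to 86.96 in the others (-1.10 ± 0.32, adjusted p = 0.23). Rab12, a GTPase of endosomal recycling, had 13.03, 16.3, 11.2, 15.9 and 15.98 FPKM in SJY and 27.5, 24.9, 23.6, 36.3 and 32.6 in ALI, and it fell without ALI 1 (-0.96 ± 0.16, adjusted p = 0.0122, against -0.95 ± 0.15 and 0.0697 with all libraries). Prkacb, a catalytic subunit of protein kinase A (-1.15 ± 0.26), Thy1, a surface protein of T cells and fibroblasts (-1.13 ± 0.35), the Notch regulator Dtx4 (-0.99 ± 0.23) and Extl3, an enzyme of heparan sulphate synthesis (-0.92 ± 0.28), did not overlap either and had adjusted p from 0.159 to 0.241 with all libraries. The difference of the unnamed gene AABR07034729.1 (-2.33 ± 1.15, adjusted p = 0.445) was enlarged by ALI 5, at 119.8 FPKM against 1.69 to 5.57 in the other ALI libraries. The SJY libraries, at 0.194 to 1.67 FPKM, lay below all of these, the highest only just.

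Outside the matrix list, 7 lists of lung structure had no called gene in either fit. They were those of type II cells (23 tested), type I cells (23), airway secretory and basal cells (14), ciliated cells (24), endothelium (31), smooth muscle and pericytes (18) and junctions, water and ion channels (28). At an unadjusted p under 0.05 with all libraries these lists had 2, 1, 1, 1, 2, 0 and 0 members higher and 0, 0, 0, 0, 0, 0 and 2 lower. Without ALI 1 they had 2, 1, 1, 1, 3, 0 and 0 higher and 4, 2, 0, 0, 3, 4 and 5 lower. Those lower were 17.4%, 8.7%, 0%, 0%, 9.68%, 22.2% and 17.9% of each list, against 11.7% of all genes. The mean level of smooth muscle genes was 4.74 to 5.04 in SJY and 5.04 to 5.24 in ALI 2 to 5, which did not overlap before rounding, with ALI 1 at 3.38. Sftpc had a mean of 12026 ± 1278 FPKM in SJY and 8507 ± 3691 in ALI, and its log2 difference was 0.67 ± 0.32 with all libraries and 0.27 ± 0.16 without ALI 1. The medians of type I cells (0.26 with all libraries, -0.21 without ALI 1), smooth muscle (0.22 and -0.20) and type II cells (0.07 and -0.13) differed in sign between the fits. In all, 13 of 46 lists had medians of opposite sign with and without ALI 1, so no direction is given for them.

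No gene was called in either fit in the lists of NF-kB (30 tested), Toll-like receptor signalling (24), xenobiotic metabolism (34), response to glucocorticoids (24), the circadian clock (21), early response genes (24), PI3K, AKT and MAPK components (36), cell cycle (34), mast cells, basophils and eosinophils (5), heart and skeletal muscle (6) and adipose tissue and mesothelium (5). With all libraries at an unadjusted p under 0.05, they held 0, 1, 3, 1, 1, 2, 0, 0, 0, 0 and 1 genes higher and 1, 1, 0, 2, 4, 0, 5, 0, 0, 0 and 0 lower. Without ALI 1 they held 3, 1, 2, 2, 0, 1, 0, 1, 0, 0 and 0 higher and 0, 1, 4, 3, 5, 0, 7, 2, 1, 1 and 0 lower. Those lower were 0%, 4.17%, 11.8%, 12.5%, 23.8%, 0%, 19.4%, 5.88%, 20%, 16.7% and 0% of each list, against 11.7% of all genes. The NF-kB genes higher were 10% of their list, against 8.03% of all genes. The NF-kB inhibitor gene Nfkbia had a mean of 582 ± 83.3 FPKM in SJY and 490.4 ± 103 in ALI, and the LPS coreceptor Cd14 123 ± 28.7 and 107 ± 29.3, with adjusted p of 0.626 and 0.742. In the acute phase list (17 tested) ceruloplasmin (Cp) fell without ALI 1 (-0.61 ± 0.13, adjusted p = 0.0349), from 137, 153, 148 and 136 FPKM in ALI 2 to 5 to 90.3, 86.7, 94.1, 82.6 and 115 in SJY. Cp was the only member called (5.88%, against 0.461% of all genes), and its call was lost without SJY 1, 3, 4 or 5 or ALI 3, 4 or 5. The list itself leaned the other way, with 12 of 17 members higher without ALI 1. Its median was 0.04 with all libraries and 0.24 without ALI 1. In the list of fatty acid and cholesterol synthesis (30 tested) Fads2 was the 1 member called (3.33%, against 0.461% of all genes). Altogether 20 of 46 lists held a called gene without ALI 1 and 1 of 46 with all libraries. Of the 20, 14 held none in at least 1 setting that left out a further library. The other 6 were the lists of antiviral genes, neutrophils, cytotoxic lymphocytes, chemokines, alveolar macrophages, and fatty acid and cholesterol synthesis. Of the 181 called genes, 66 were in a list, where the lists held 1012 distinct genes of the 13008 tested. The lists were chosen with earlier results of these data known, so these counts are a description only.

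**Figure D5:**
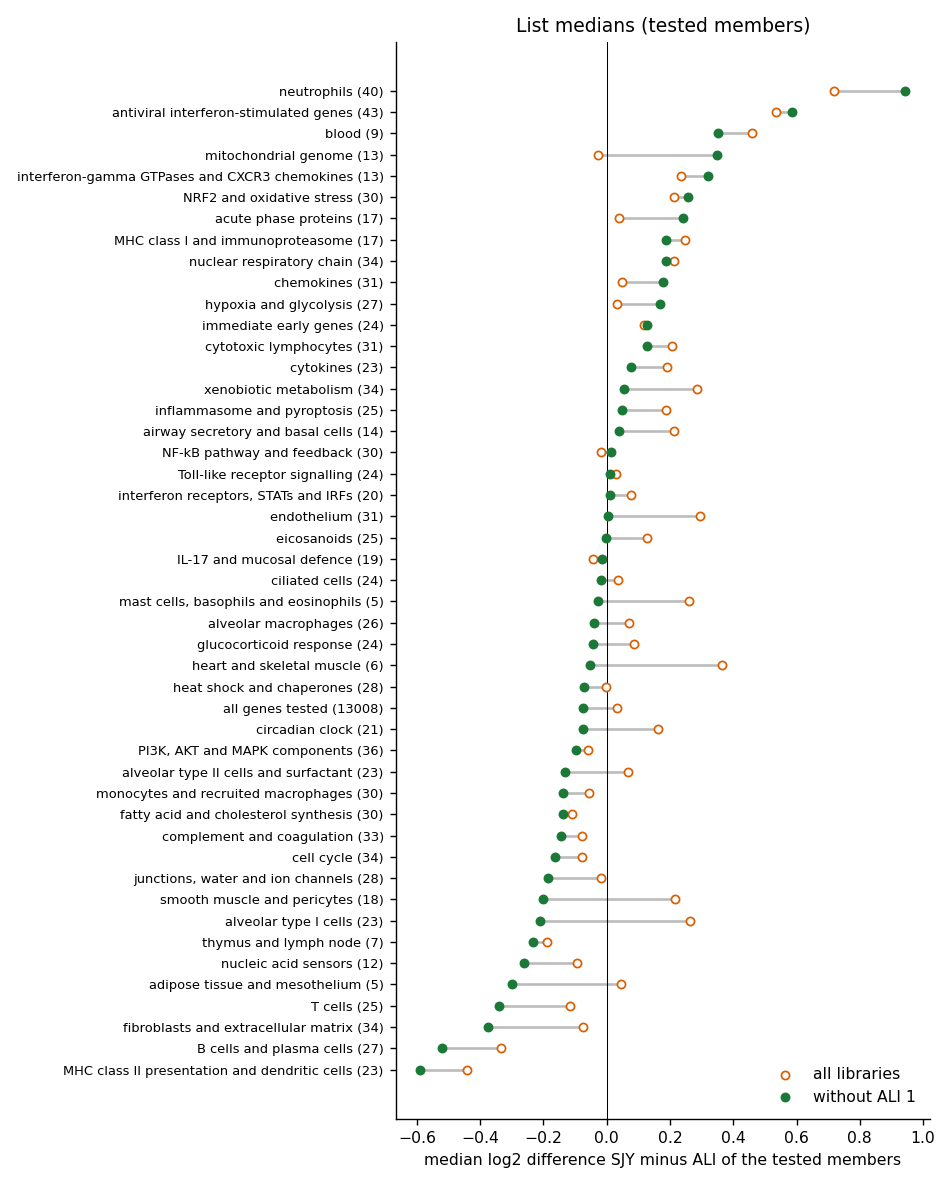
Median log2 difference SJY minus ALI (x axis) of the tested members of each of 46 gene lists and of all tested genes (y axis, number tested in parentheses), open orange with all libraries and filled green without ALI 1. Neutrophil genes (0.72 and 0.94) and antiviral genes (0.53 and 0.58) are highest in both, and MHC class II and dendritic cell genes (-0.44 and -0.59) are lowest in both.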

How the data were processed

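RNA of 15 rat lung libraries was used, 5 per group by the labels. TRIzol extraction and the NEBNext Ultra kit are given per the labels' protocols. Trimming, alignment and assembly tools in the submitters' processing notes are cutadapt, HISAT2 and StringTie, on build Rnor_6.0. Tool versions and the strand setting are not given in the sources used here, so overlapping and antisense genes, and near-identical paralogs, are uncertain. Each gene has 1 FPKM value per library, deposited by the authors and named so per the file headers, for 22250 genes, with symbols from the same table, and 149 symbols stand on more than 1 line. Read counts were not used here. The steps between low values gave an estimate of relative depth, searched only close to equality, and no count test was made.

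Genes reaching 1 FPKM in 5 or more SJY and ALI libraries (of 10) were tested on log2(FPKM + 1) with limma 3.58.1 in R 4.3.3 (eBayes with trend and robust settings, two-sided, Benjamini-Hochberg adjustment over all 13008 genes). The fit held all 15 libraries in 3 groups, or 14 without ALI 1, and the 14-library fit is the one the text means by "without ALI 1". A gene was called at an adjusted p under 0.05. The script was tested on simulated data. Errors of means are SDs over 5 libraries (4 for ALI 2 to 5).

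The comparison and the 46 gene lists (1301 entries, 1247 matched, 1096 tested) were chosen with earlier results of these data known. Genes were named by a rule: the 8 largest non-overlapping rises and falls with all libraries, the same among genes called without ALI 1, each with 5 FPKM or more as the mean of the higher group, each gene called with all libraries, up to 3 called members per list and direction, or for a list with no call its 3 members of highest mean FPKM, and the 5 genes most like Gzma. Of lists with no call the text gives only some of those 3, by choice made after values were seen, and further genes were also named after their values were seen. Some genes are in several lists. Some members of the lists are counted in them but not reported here by name. LOC102555453, which stands on several lines, was also picked by the rule and rose without ALI 1 (1.93 ± 0.38, adjusted p = 0.0267).

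Alternatives were median-of-ratios scaling, rescaling without mitochondrial genes, a pseudocount of 0.1, no filter, a mean of at least 5 FPKM, a fit of only the SJY and ALI libraries, limma without trend or robust settings, array weights, a replicate block and leaving out each library. Promoter windows are from RefSeq (GRCr8). Their coordinates are not those of the deposited files' build, and no gene coordinates are given.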

Additional observations from a re-analysis of the deposited data

Results flagged for a closer look

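Among 35 genes named by rule, each group of 5 libraries was examined for a library lying far from the other 4, by the ratio of its gap to the whole range of log2(FPKM + 1). It was found in 14 of 105. Chance gives such a library in about 1 of 20 groups of unselected values, a rate that does not apply here, since the genes were chosen partly by how libraries lie and share the same libraries. In SJY, the histone gene H3f3c was high in SJY 5 (101 FPKM), Cd4 was low in SJY 1 (11.6 FPKM) and Tfpt low in SJY 5 (18.6 FPKM). In ALI, AABR07034729.1 was high in ALI 5 (119.8 FPKM), and ALI 1 was high for Dtx4 (20.5 FPKM) and low for Cd4 (7.27 FPKM) and Fads2 (5.80 FPKM). In control, Thy1 was low in control 7 (3.20 FPKM), and the other 6 were all in control 4. There AABR07034729.1 was high (130.0 FPKM), and Prkacb (11.2 FPKM), Tgfbr2 (26.7 FPKM), Dtx4 (6.04 FPKM), Extl3 (3.68 FPKM) and Lbh (30.6 FPKM) were low. Control 4 enters the comparison only through the estimate of spread, and without it and ALI 1 the count of called genes was 500. The mitochondrial share stood out in ALI 1 (37.7%) and in SJY 1 (17.1%).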

How the results depend on the processing

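With all libraries, where 1 gene was called, no gene was called under median-of-ratios scaling, a pseudocount of 0.1, no filter, a fit of only SJY and ALI, or limma without trend or robust settings (0 each), and 498 were called with array weights. Leaving out 1 library gave 0 to 181 calls, 181 without ALI 1, 5 without control 5 and 4 without control 4. It gave 0 without SJY 1, 3, 4 or 6, ALI 3 or 5, or control 6 or 7. Without ALI 1, where 181 were called, the count was 104 with no filter and 637 with array weights, and 124 to 189 under the other settings apart from the block. Leaving out 1 further library gave 22 (ALI 5) to 500 (control 4), with 58 without SJY 6, 60 without SJY 1, 62 without SJY 3, 97 without SJY 4, 108 without control 6, 119 without SJY 5 and 120 without control 7. With the number in the labels as a replicate block, 1 gene was called with all libraries and 12 without ALI 1. Deviations of SJY and ALI libraries of the same number had r = 0.139 (number 1), -0.0217 (3), -0.396 (4) and 0.306 (5), and SJY 1 and 5 were most like the ALI library of their own number. Since not every pair was over 0.1, the numbers were not taken as pairs. Between the fits with and without ALI 1, the called gene Tnfsf13b changed sign, as given above. The settings were run for each gene only within the fit or fits it was named for. There 1 gene in the text changed sign: Hmox1 with all libraries, where it was not called, had a log2 difference of -0.0085 without ALI 5 and 0.69 without ALI 1. The causes were not tested. Group sizes of 5 and 4 and the unknown origin of each library limit what the tests can show.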
